A study of Mus musculus with 12 samples.

Results

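The homeostatic microglia identity genes described here are 9 genes, Tmem119, Cx3cr1, Sall1, Olfml3, Fcrls, Siglech, Gpr34, Selplg and Cst3, matched by symbol to Ensembl mouse identifiers. All 9 were found among the 25442 genes that both count tables hold. The samples were 12 RNA sequencing libraries of hippocampal cells of male C57Bl6/J mice, which received bilateral CA1 injections of an adeno-associated virus at 2 months of age and were studied 2 months later, at 4 months. The virus carried either the mouse adenosine A2A receptor (AAV-A2A) or GFP (AAV-GFP, the control), in both cases under the GfaABC1D promoter, which is selective for astrocytes, so the vector was aimed at astrocytes and not at microglia. Cells were separated with magnetic beads, first against ACSA-2, an astrocyte surface antigen, and then, on the unlabeled eluate, against CD11b, an integrin subunit of microglia and other myeloid cells. Each of the 4 groups (ACSA-2 AAV-GFP, ACSA-2 AAV-A2A, CD11b AAV-GFP and CD11b AAV-A2A) had 3 libraries, named here by vector and replicate number, such as GFP-2331. Whether the libraries of the 2 fractions came from the same animals is not given in the sources used here.

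Homeostatic microglia are the surveying immune cells of the healthy brain, and they are told apart from other macrophages by a set of genes that depends on signals of the brain tissue, among them TGF-beta. Sall1 is a transcription factor that holds this identity. Cx3cr1 is the receptor of the neuronal chemokine Cx3cl1, Gpr34 a receptor of lysophosphatidylserine, Siglech a sialic acid-binding lectin that signals through the adaptor Tyrobp, Selplg the ligand of the selectins, and Fcrls an Fc receptor-like scavenger receptor. Tmem119 is a membrane protein of unsettled function, Olfml3 a secreted glycoprotein of the olfactomedin family, and Cst3 (cystatin C) a secreted inhibitor of cysteine proteases that astrocytes also express.

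On GRCm38, as annotated by GENCODE, Tmem119 (ENSMUSG00000054675) lies at chr5:113793729-113800516 and Selplg (ENSMUSG00000048163) at chr5:113818536-113832644, both on the minus strand. Olfml3 (ENSMUSG00000027848, chr3:103722222-103738001) and Fcrls (ENSMUSG00000015852, chr3:87250758-87263738) are both on the minus strand of chromosome 3. Cx3cr1 (ENSMUSG00000052336) is at chr9:119901616-120069879, Sall1 (ENSMUSG00000031665) at chr8:89027235-89044162 and Cst3 (ENSMUSG00000027447) at chr2:148871722-148875692, all on the minus strand. Siglech (ENSMUSG00000051504, chr7:55768178-55778925) and Gpr34 (ENSMUSG00000040229, chrX:13632089-13640858) are on the plus strand. The merged exons of a member cover between 1.27 kb (Cst3) and 6.16 kb (Olfml3). Cx3cr1 is the member with exon bases that another annotated gene shares (78 bases, 1.7% of its exons, on the opposite strand), so its reads over those bases could have been discarded or misassigned.

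Since most members were high in the same libraries, the RefSeq windows of 250 bases before the transcription start (GRCm38.p6) were read for the 6 members the table holds. Tmem119, Gpr34 and Selplg had no entry. The windows were searched on both strands for GAGGAA, the core of the site read by the myeloid factor PU.1. It was found in the windows of Fcrls and Cst3, and in neither those of Olfml3, Siglech and Cx3cr1 nor any of the 3 windows of Sall1. That is 25% of the 8 windows of the members, beside 23.3% of all 32851 windows, so the share of the members was close to that of all genes. A match is a match of letters, not a bound site. The stretches below are the parts of the windows of Fcrls, Cst3, Olfml3, Siglech and the most upstream window of Sall1 that lie outside annotated exons. They are shown to set genes that were far higher in the CD11b fraction (Fcrls, Olfml3, Siglech) beside the pair that behaved otherwise (Sall1, Cst3). They are written 5′ to 3′ on the strand of the gene, with GAGGAA in capitals. The Fcrls stretch lies within the GENCODE bounds of that gene given above, outside its exons. The window of Cx3cr1 lies wholly in an annotated exon and is not printed.
Fcrls, minus strand, chr3:87263600-87263677: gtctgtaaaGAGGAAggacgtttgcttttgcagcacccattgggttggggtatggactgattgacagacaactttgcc
Cst3, minus strand, chr2:148875693-148875762: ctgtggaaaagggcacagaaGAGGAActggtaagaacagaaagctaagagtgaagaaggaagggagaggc
Olfml3, minus strand, chr3:103738002-103738251: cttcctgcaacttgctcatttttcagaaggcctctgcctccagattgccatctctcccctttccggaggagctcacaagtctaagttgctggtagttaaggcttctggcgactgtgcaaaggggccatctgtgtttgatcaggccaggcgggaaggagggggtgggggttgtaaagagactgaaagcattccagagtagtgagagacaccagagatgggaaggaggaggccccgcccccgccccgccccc
Siglech, plus strand, chr7:55767934-55768177: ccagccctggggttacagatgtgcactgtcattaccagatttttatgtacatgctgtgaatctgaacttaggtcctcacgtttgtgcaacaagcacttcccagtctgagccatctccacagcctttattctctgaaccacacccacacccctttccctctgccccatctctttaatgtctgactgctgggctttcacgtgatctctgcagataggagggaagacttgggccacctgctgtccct
Sall1, minus strand, chr8:89044163-89044412: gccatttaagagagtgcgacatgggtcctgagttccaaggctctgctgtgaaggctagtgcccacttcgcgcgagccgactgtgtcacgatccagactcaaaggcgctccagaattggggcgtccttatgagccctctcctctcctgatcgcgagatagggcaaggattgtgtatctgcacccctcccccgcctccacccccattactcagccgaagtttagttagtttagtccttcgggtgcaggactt

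The libraries held between 33937067 and 53206974 counts on genes, and each member had at least 191 counts in every library. Error from the sampling of reads is therefore small beside the spread between libraries. The reads came from amplified cDNA without molecular identifiers, so the number of RNA molecules behind them is not known. Levels are given as CPM, the counts scaled to a common library total over genes. Adora2a, the gene of the vector, was at 681 to 867 CPM in the ACSA-2 AAV-A2A libraries and 22.7 to 25.7 CPM in the ACSA-2 AAV-GFP ones, and at 15.6 to 42.4 CPM against 4.41 to 7.59 CPM in the CD11b libraries. In the CD11b fraction 3 libraries stood apart. GFP-2328, GFP-2329 and A2A-2347 carried 64358 to 125155 CPM on 10 choroid plexus markers, against 26.3 to 137 CPM in GFP-2331, A2A-2343 and A2A-2344, and Ttr, the most abundant of the 10, was at 27988 to 80536 CPM against 4.93 to 72.6 CPM. Prlr and Slc4a5 were at 0 in at least 1 of the AAV-A2A libraries, and none of the 10 was at 0 in an AAV-GFP library. Fitted values that rest on the CD11b libraries are therefore also given without these 3, partly as ranges or for some members. Leaving these 3 out keeps GFP-2331 as the only CD11b AAV-GFP library, with its spread assumed to be like that of the other groups. The order per kilobase and the ratios below are given for all 6 libraries, library by library or as medians.

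Among the 9 members, Tmem119 gives the pattern that the others share. Its level in the CD11b fraction was 1043, 2085 and 6671 CPM in GFP-2328, GFP-2329 and GFP-2331, and 6336, 6149 and 2583 CPM in A2A-2343, A2A-2344 and A2A-2347. In the ACSA-2 fraction it was 15.6, 14.3 and 22.1 CPM in the AAV-GFP libraries and 20.1, 14.2 and 16.4 CPM in the AAV-A2A libraries. Every CD11b library was thus far above every ACSA-2 library, and within the CD11b fraction the low libraries were the 3 rich in choroid plexus RNA. For Cx3cr1 the CD11b levels were 1495, 2690 and 8924 CPM with AAV-GFP and 8295, 4508 and 2895 CPM with AAV-A2A. Olfml3 stood at 683, 1230 and 4378 CPM with AAV-GFP and 4099, 3140 and 1567 CPM with AAV-A2A. The lowest library of both genes was GFP-2328 and the highest GFP-2331, which belong to the same group. Fcrls had 647, 1224 and 3924 CPM in the AAV-GFP libraries and 3624, 3029 and 1424 CPM in the AAV-A2A libraries. Selplg, the member with the most reads after Cst3, had 1554, 2794 and 9209 CPM and 8672, 7045 and 3288 CPM in the same order. Siglech ranged from 538 to 2866 CPM and Gpr34 from 551 to 2831 CPM over the 6 CD11b libraries, both lowest in GFP-2328 and highest in A2A-2343. In the CD11b fraction the AAV-GFP and AAV-A2A libraries overlapped for 9 of the 9 members, while 11.5% of genes with at least 1 CPM were higher and 13.3% lower with AAV-A2A without overlap.

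Sall1 and Cst3 departed from this pattern. Sall1 was at 93.0, 156 and 483 CPM in the CD11b AAV-GFP libraries and at 449, 848 and 409 CPM in the AAV-A2A libraries. Its highest CD11b level was in A2A-2344 and not in GFP-2331 or A2A-2343, and it was the one member for which choroid-rich A2A-2347 came close to the libraries without choroid RNA. Its ACSA-2 levels were 70.1, 53.2 and 66.1 CPM with AAV-GFP and 32.3, 8.77 and 16.8 CPM with AAV-A2A, with no overlap between the vectors. Cst3 was at 8874, 18986 and 36577 CPM in the CD11b AAV-GFP libraries and at 27794, 13343 and 7839 CPM in the AAV-A2A ones. In the ACSA-2 fraction it was at 26038, 22125 and 21389 CPM with AAV-GFP and 30068, 30880 and 29372 CPM with AAV-A2A. Cst3 was thus abundant in both fractions, and it made up most of the summed member level of the ACSA-2 libraries: the other 8 members together came to 125 to 365 CPM there, against 6605 to 38381 CPM in the CD11b libraries.

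**Figure D1:**
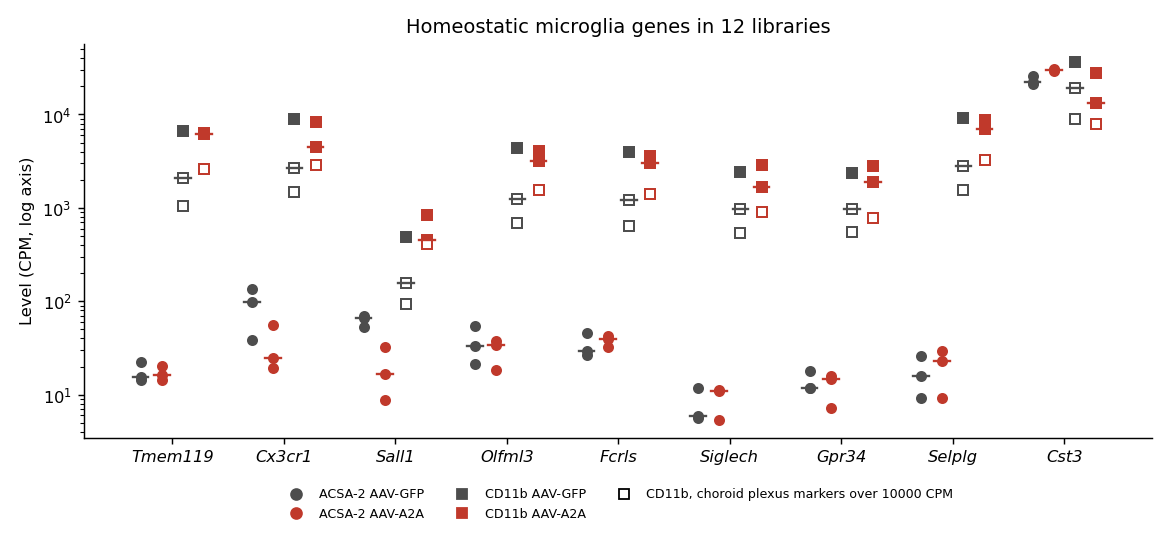
Level of the 9 members in CPM (log axis) in each of the 12 libraries, with circles for ACSA-2 and squares for CD11b libraries, grey for AAV-GFP and red for AAV-A2A, a short line at each group's median, and open squares for the CD11b libraries with over 10000 CPM of choroid plexus markers. Of the 9 members, 7 are more than 1 log10 unit higher in the CD11b libraries, Sall1 lies closer and Cst3 overlaps between fractions.

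Within the CD11b fraction the level per kilobase of the principal transcript was ordered, by the median of 6 libraries, as Cst3 (18796 CPM per kb), Selplg (2793), Tmem119 (1949), Fcrls (981), Cx3cr1 (824), Gpr34 (677), Siglech (622), Olfml3 (431) and Sall1 (81.5 CPM per kb). Each member was above the next in 6 of the 6 libraries except for 2 neighbouring pairs. Fcrls was above Cx3cr1 in 1 of 6, and Gpr34 above Siglech in 4 of 6, so neither order is settled. With the length of all merged exons in place of the principal transcript, Tmem119 came before Selplg in 6 of 6 libraries. The secreted inhibitor was therefore the most abundant member on either length and the transcription factor the least.

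To ask how strongly the sort enriched these genes, the CD11b and ACSA-2 libraries of the same vector were compared in 1 model of all 12 libraries, with edgeR's quasi-likelihood test and Benjamini-Hochberg adjustment over 18602 genes. A gene is called changed at an adjusted p under 0.05 and an absolute log2 fold change (log2 FC) over 0.32. In the AAV-GFP controls 7 of the 9 members were higher in the CD11b fraction, beside 14.4% of all genes tested. In the AAV-A2A animals it was 8 of 9, beside 25.0% of all genes. The median log2 FC of the 9 members was 5.87 and 7.38 with the respective vectors, beside 0.11 and 0.05 over all genes tested. All CD11b libraries were above all ACSA-2 libraries for 8 of 9 members with AAV-GFP (29.3% of genes with at least 1 CPM) and for the same number with AAV-A2A (33.2%). Cst3 overlapped with AAV-GFP and was below without overlap with AAV-A2A. The fraction cannot be told apart from the table it was deposited in, and in bulk libraries fewer cells of a type cannot be told apart from less RNA per cell.

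Selplg had a log2 FC between fractions of 8.07 ± 0.99 (SE, n = 3 against 3, adjusted p = 0.000235 by edgeR) in AAV-GFP and 8.44 ± 1.01 (adjusted p = 9.60e-05) in AAV-A2A. Tmem119 had 7.57 ± 0.88 and 8.35 ± 0.91, Siglech 7.39 ± 0.87 and 7.81 ± 0.88, and Gpr34 6.53 ± 0.82 and 7.38 ± 0.85. Olfml3 rose by 5.87 ± 0.87 and 6.78 ± 0.90, Fcrls by 5.86 ± 0.80 and 6.30 ± 0.81, and Cx3cr1 by 5.61 ± 0.93 and 7.48 ± 1.01. These 7 genes, receptors and surface proteins apart from the secreted Olfml3, passed the threshold in all 11 settings of each comparison. Their values in the AAV-GFP controls rested in size on GFP-2331: without it Selplg was at 6.80 and Cx3cr1 at 4.33, and all 7 were still called. With the 3 choroid-rich libraries left out, the 7 values in AAV-GFP were between 6.76 (Cx3cr1) and 9.21 (Selplg), resting on GFP-2331 alone in the CD11b arm, and those in AAV-A2A between 6.69 (Fcrls) and 8.83 (Selplg).

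Sall1 had a log2 FC of 1.95 ± 0.67 between fractions in AAV-GFP, which missed the threshold (adjusted p = 0.0505 by edgeR) although its CPM did not overlap, and 4.99 ± 0.77 in AAV-A2A (adjusted p = 0.000362). In AAV-GFP it passed in 4 of 11 settings, DESeq2 (which called 19.1% of all genes higher) and the fit without the choroid-rich libraries (3.06, with GFP-2331 as the single CD11b library of that arm) among them, and without GFP-2331 the value was 0.77. Cst3 was at -0.14 ± 0.63 in AAV-GFP and -0.72 ± 0.63 in AAV-A2A, called in no setting, and its sign in AAV-GFP turned to 0.78 without the choroid-rich libraries. In AAV-A2A that fit gave 5.27 for Sall1 and -0.30 for Cst3. The transcription factor and the protease inhibitor are the members whose levels in the ACSA-2 libraries were nearest to those in the CD11b libraries.

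**Figure D2:**
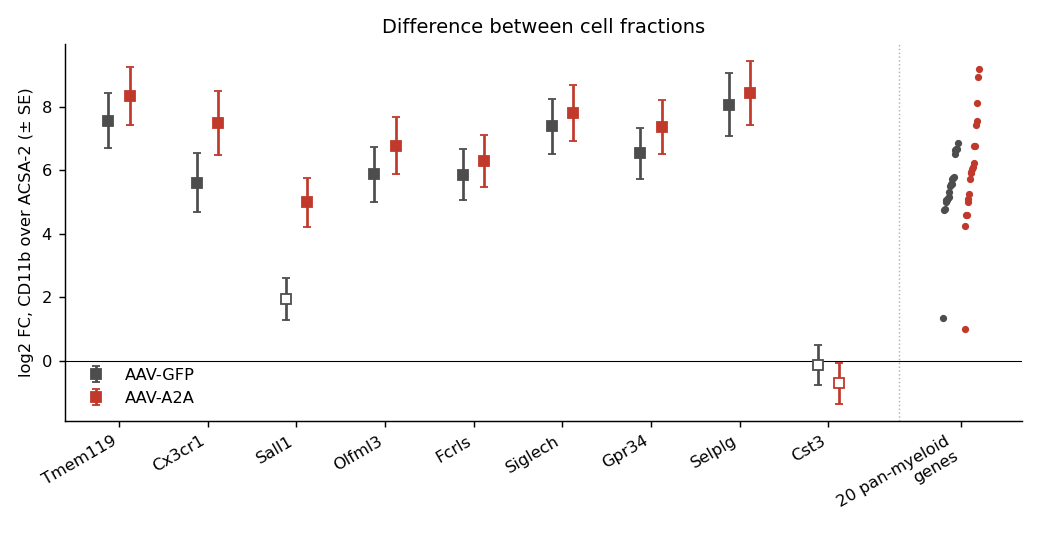
Log2 FC of CD11b over ACSA-2 libraries for the 9 members in AAV-GFP (grey) and AAV-A2A (red), with bars of ± SE and open squares where the threshold was not passed, beside the values of 20 pan-myeloid genes as dots without error bars. The 7 called members of AAV-GFP lie between 5.61 and 8.07, and Sall1 (1.95) and Cst3 (-0.14) lie lower.

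For comparison, 20 genes common to myeloid cells (such as Ptprc, Itgam, Fcer1g and Laptm5) had a median log2 FC between fractions of 5.53 in AAV-GFP and 5.999 in AAV-A2A, and 19 of 20 were called higher with each vector. Relative to the summed CPM of this list, the members can be compared within a library. In the ACSA-2 libraries Tmem119 came to a median of 2.37% of the pan-myeloid sum, against 12.7% in the CD11b libraries. Selplg was at 2.39% against 17.3%, Siglech at 0.981% against 5.05%, and Gpr34 at 1.39% against 5.29%. The ratio of Olfml3 (3.40% against 8.23%) and Fcrls (4.46% against 7.36%) differed less. For these 6 members every CD11b library was above every ACSA-2 library in this ratio. The share of all genes for which that held was not counted. Cx3cr1 was less separate, with 15.3, 6.41 and 14.3% in AAV-GFP against 16.2, 14.3 and 16.9% in the CD11b libraries, which overlap, and 5.07, 2.26 and 3.45% in AAV-A2A against 16.7, 13.2 and 15.1%, which do not. Sall1 was at 10.95, 8.82 and 7.07% in the ACSA-2 libraries of AAV-GFP, above the 1.00, 0.829 and 0.913% of the CD11b libraries. In AAV-A2A its fractions overlapped, with 2.95, 0.811 and 3.01% in ACSA-2 and 0.904, 2.48 and 2.14% in CD11b libraries. The median ratio of Cst3 was 52.2 times as large in the ACSA-2 as in the CD11b libraries. Which cells this RNA came from was not tested.

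The other genes of the homeostatic program moved with the members between fractions. Of 29 further homeostatic genes, 26 were higher in CD11b libraries of AAV-GFP and 28 in those of AAV-A2A, and none was lower. Their median log2 FC was 5.56 and 7.18. Over all genes tested, 14.4% and 25.0% were higher. Without the choroid-rich libraries, which leaves GFP-2331 alone in the CD11b AAV-GFP group, the median of the 29 genes was 6.58 and 7.47. Csf1r, the receptor of the survival factors Csf1 and Il34, had 6.66 ± 0.78 and 8.78 ± 0.86, Cd33, a sialic acid-binding receptor, 5.77 ± 0.72 and 8.49 ± 0.81, and Ltc4s, which makes leukotriene C4, 5.17 ± 0.50 and 4.70 ± 0.48 (adjusted p by edgeR at most 0.00024 for each). Hpgds, a prostaglandin D synthase, was at 5.51 ± 0.68 in AAV-GFP, and Slco2b1, an organic anion transporter, at 7.30 ± 0.79 in AAV-A2A.

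Of 19 regulators of microglia identity, 12 were higher and 1 was lower in CD11b libraries of AAV-GFP, and 15 were higher and 1 lower in AAV-A2A. Over all 18602 genes tested, 2678 were higher and 2290 lower in AAV-GFP, and 4658 higher and 3899 lower in AAV-A2A. The median log2 FC of the regulators was 2.95 and 4.32, and 3.86 and 4.65 without the choroid-rich libraries. The transcription factor Irf8 had a log2 FC of 5.64 ± 0.72 and 6.84 ± 0.76, and the TGF-beta receptor Tgfbr1 was at 4.88 ± 0.72 and 8.49 ± 0.85. Spi1, the gene of PU.1, had 6.22 ± 0.84 in AAV-GFP, and Cebpa, another myeloid transcription factor, 5.69 ± 0.62 in AAV-A2A. The one lower regulator was Il34, a ligand of Csf1r, with -1.75 ± 0.49 and -1.65 ± 0.49, which passed in 6 of 11 settings for AAV-GFP and 9 of 11 for AAV-A2A. In the same controls Sall1 was at 1.95, and the difference between these factors was not tested.

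Of 17 ligands and partners of the members, 16 were tested. In CD11b libraries of AAV-GFP 8 were higher and none was lower, and in AAV-A2A 10 were higher and 1 was lower. Over all genes tested, 14.4% and 25.0% were higher. The median log2 FC of the partners was 1.74 and 2.11, and 2.10 and 2.44 without the choroid-rich libraries. Ctss, a cysteine protease that cystatin C inhibits, had a log2 FC of 6.22 ± 0.83 and 6.69 ± 0.85. Tyrobp, the adaptor of Siglech, had 5.02 ± 0.78 and 4.49 ± 0.76, and Trem2, which signals through the same adaptor, 6.28 ± 0.95 and 6.36 ± 0.95. Hcst, a related adaptor, was called higher in AAV-GFP but had no count in the ACSA-2 AAV-GFP libraries, so no fold is given. Its CD11b level was 1.80 to 8.73 CPM over the 6 libraries. In AAV-A2A Abhd12, a lipase of lysophosphatidylserine, was higher (2.66 ± 0.60), and Rbbp7, a subunit of histone deacetylase complexes that Sall factors recruit, was lower (-0.72 ± 0.24, adjusted p = 0.0287 by edgeR, called in 5 of 11 settings).

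The question whether the astrocytic receptor changed these genes in microglia was put to the 6 CD11b libraries. None of the 9 members was called, and none of the 16949 genes tested (0.0% of all genes) passed the threshold with edgeR. At an unadjusted p under 0.05 there were 2704 genes, and DESeq2 called 502 of 17317 (2.9%), none of them a member. The log2 FC of AAV-A2A over AAV-GFP was positive for 8 of the 9 members, with a median of 0.56 beside -0.05 over all genes and 0.52 over the 20 pan-myeloid genes. Sall1 had 1.26 ± 0.74 (SE, n = 3 against 3, adjusted p = 0.432 by edgeR) and Tmem119 0.69 ± 0.88 (adjusted p = 0.722). Gpr34 was at 0.60 ± 0.80, Siglech at 0.57 ± 0.79, Selplg at 0.56 ± 0.88, Olfml3 at 0.55 ± 0.87, Fcrls at 0.55 ± 0.84, Cx3cr1 at 0.34 ± 0.89 and Cst3 at -0.28 ± 0.89. Each value but that of Sall1 was smaller than its own SE.

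Single libraries moved the size of these values. Without GFP-2331 they ranged from 1.51 (Siglech and Gpr34) to 2.38 (Sall1) for 8 members and Cst3 was at 0.47, with adjusted p from 0.132 to 0.745 by edgeR. Without A2A-2343 Siglech was at 0.0022, Gpr34 at 0.064, Cx3cr1 at -0.24 and Cst3 at -0.99. Without GFP-2328 Fcrls and Olfml3 were at 0.12 and Selplg at 0.13. With all 3 choroid-rich libraries left out, which leaves 1 library against 2 and assumes that the lone GFP-2331 varies like the others, 7 of the 9 values were negative. They then went from -0.78 (Cst3) to 0.43 (Sall1), with a median of -0.20. With library sizes set to the pan-myeloid sum, Cx3cr1, Siglech and Gpr34 were at -0.07, -0.01 and -0.03, and the median of all genes shifted to -0.99. The levels of other cells' markers also differed between the groups, and their part in these values beyond the choroid-rich libraries was not tested. The choroid plexus sum was 137 to 125155 CPM in AAV-GFP and 26.3 to 64358 CPM in AAV-A2A, the sum of 10 endothelial markers 2045 to 7426 against 1310 to 3232 CPM, and that of 7 erythrocyte markers 931 to 6653 against 63.5 to 213 CPM. The 8 border macrophage markers came to 153 to 591 CPM and 407 to 904 CPM, and 10 astrocyte markers to 705 to 5568 CPM and 434 to 3257 CPM. No astrocyte, endothelial, erythrocyte or border macrophage marker was at 0 in a CD11b library.

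**Figure D3:**
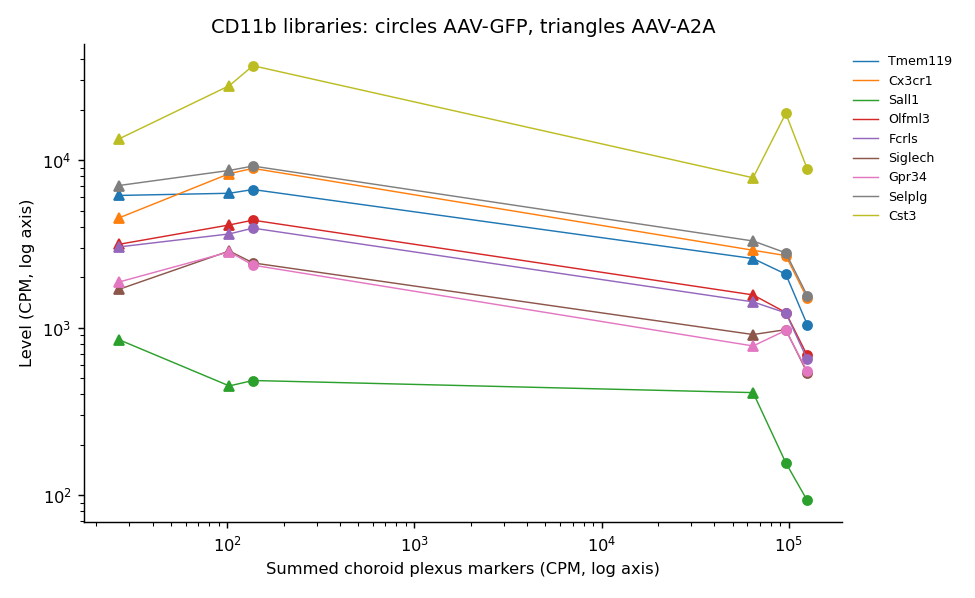
Level of the 9 members (CPM, log axis) in the 6 CD11b libraries against the summed CPM of 10 choroid plexus markers (log axis), with circles for AAV-GFP and triangles for AAV-A2A and a line joining the libraries for each member. The 3 libraries at 64358 CPM or more on the right hold less of each member than GFP-2331, and Sall1 in A2A-2347 is close to it.

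Set against the pan-myeloid sum of the same library, most of this spread was gone. Over the 6 CD11b libraries the CPM of a member differed by a factor of 4.67 (Cst3) to 9.12 (Sall1) between the lowest and the highest library. As a percentage of the pan-myeloid sum the factor was 1.27 for Siglech, 1.28 for Cx3cr1, 1.36 for Fcrls, 1.39 for Selplg, 1.40 for Olfml3, 1.47 for Gpr34 and 1.62 for Tmem119. It stayed at 2.59 for Cst3 and 2.99 for Sall1. Against the full list the choroid-rich libraries and the others thus held nearly the same amount of 7 members, and 2 members varied beyond that. Without C1qa, C1qb, C1qc, Aif1 and Cd68 the AAV-A2A libraries spread more for some of the 7. The standard deviation of their log2 ratio rose from 0.17 to 0.32 (Cx3cr1), 0.15 to 0.31 (Siglech) and 0.27 to 0.37 (Gpr34). It fell from 0.26 to 0.19 for Tmem119 and from 0.15 to 0.13 for Fcrls. For Olfml3 and Selplg it was 0.13 and 0.15, against 0.09 and 0.14. Over the AAV-GFP libraries the 7 values were 0.09 to 0.21 with the full list and 0.12 to 0.20 without these.

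Between the vectors this ratio was compared for each member with an exact permutation test of 3 against 3 libraries, two-sided, whose smallest possible p is 0.1, so that none of the 9 tests could pass. Cst3 was at 95.9, 101 and 69.1% of the pan-myeloid sum in GFP-2328, GFP-2329 and GFP-2331 and at 56.0, 39.0 and 41.0% in A2A-2343, A2A-2344 and A2A-2347. All AAV-A2A libraries were below all AAV-GFP libraries (difference of -0.97 in log2, exact permutation p = 0.1), which held for 3.13% of genes with at least 1 CPM. Tmem119 was at 11.3, 11.1 and 12.6% against 12.8, 18.0 and 13.5%, higher with AAV-A2A without overlap (0.33 in log2, exact permutation p = 0.1), as for 1.34% of genes. The gap between GFP-2331 and A2A-2343 was small, and without C1qa, C1qb, C1qc, Aif1 and Cd68 in the reference list the difference of Tmem119 was -0.02. That of Cst3 kept its sign, and the part of astrocyte RNA in the Cst3 ratio was not tested.

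Sall1 was at 1.00, 0.829 and 0.913% of the pan-myeloid sum in the AAV-GFP libraries and at 0.904, 2.48 and 2.14% in A2A-2343, A2A-2344 and A2A-2347. A pair of AAV-A2A libraries was thus more than 2 times as high as the rest and the remaining one was at the control level (0.89 in log2, exact permutation p = 0.3). The difference was 0.61 without A2A-2344 and 1.33 without A2A-2343, the AAV-A2A library at the control level. The same pair carried 41.1 and 42.7% of its counts on genes with over 5 kb of exon, against 28.4 to 32.1% in the other 4 libraries, and Sall1 has 5.26 kb. With each library's trend on exon length removed its log2 FC was 0.99, against 1.26. Cst3, the shortest member, was at 0.39 in that fit in place of -0.28. Olfml3, the longest with 6.16 kb, was at 0.30 in place of 0.55. Its ratio was 9.17 and 8.19% in A2A-2344 and A2A-2347, against 8.26% in A2A-2343 and 6.54 to 8.27% in the AAV-GFP libraries. The part of exon length in these values was not tested. For the 6 members other than Cst3, Tmem119 and Sall1 the differences in log2 ratio were between -0.07 (Cx3cr1) and 0.21 (Olfml3). Their groups overlapped, with exact permutation p from 0.2 to 0.9. Without C1qa, C1qb, C1qc, Aif1 and Cd68 in the reference list these 6 differences were all negative, from -0.42 (Cx3cr1) to -0.13 (Olfml3). Those of Olfml3, Fcrls and Selplg thereby turned in sign, so the values depend on the reference list.

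**Figure D4:**
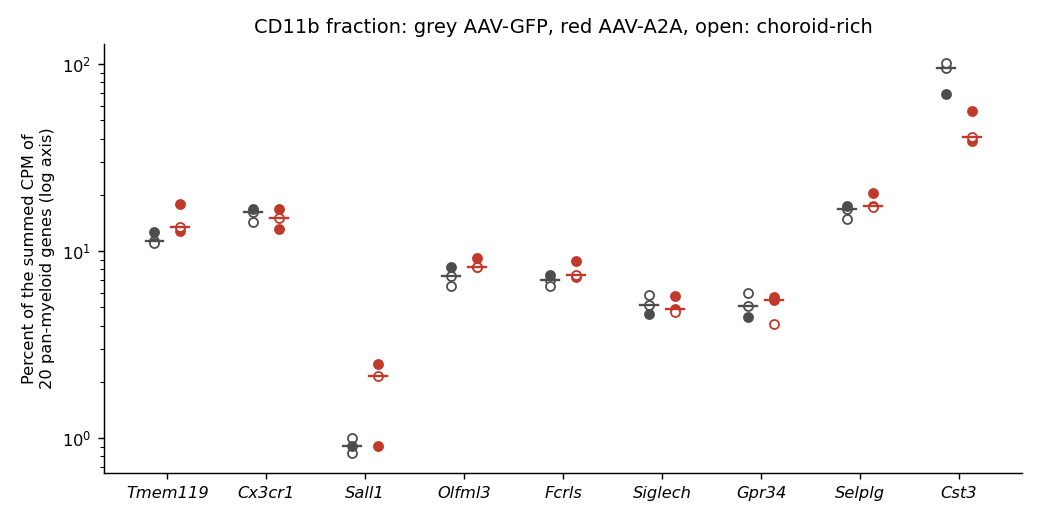
Each member's CPM as a percentage of the summed CPM of 20 pan-myeloid genes (log axis) in the 6 CD11b libraries, grey for AAV-GFP and red for AAV-A2A, open circles for choroid-rich libraries and a short line at each group's median. The libraries lie close together for 7 members, Sall1 is high in A2A-2344 and A2A-2347, and Cst3 is lower in the AAV-A2A libraries.

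None of the other homeostatic genes (0 of 29), regulators (0 of 19) or partners (0 of 17) was called between the vectors in the CD11b fraction. There edgeR called none of the 16949 genes tested. Abundant genes of each list had a log2 FC of 1.74 ± 0.83 (Csf1r) and 0.39 ± 0.73 (the protease Ctsd) among homeostatic genes, and 0.88 ± 0.70 (Irf8) and 2.29 ± 0.78 (Tgfbr1) among regulators. Among partners they were Ctss (0.42 ± 0.88), the cysteine protease Ctsb (0.66 ± 0.62) and Abhd12 (0.62 ± 0.73). The adjusted p of these 7 genes was 0.282 or more by edgeR. Csf1r was at 1551 to 7366 CPM with AAV-GFP and 9082 to 18570 CPM with AAV-A2A. Tgfbr1 was at 79.3 to 342 CPM and 396 to 1456 CPM in the same order. Both were thus higher without overlap, as were 11.5% of genes with at least 1 CPM, and the others of the 7 overlapped. Of 20 genes of disease-associated microglia, edgeR called 0 and DESeq2 2, with a median of 0.23 in edgeR. Without the choroid-rich libraries that median was -0.33, and the medians of the homeostatic genes, regulators and partners went from 0.94 to 0.097, from 0.80 to 0.34 and from 0.14 to -0.16.

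In the ACSA-2 fraction 1 of the 9 members passed the threshold between the vectors, Sall1, beside 3.36% of the 16451 genes tested (3.19% lower and 0.176% higher). Its log2 FC was -1.74 ± 0.40 (SE, n = 3 against 3, adjusted p = 0.0493 by edgeR), on the 53.2 to 70.1 CPM with AAV-GFP and 8.77 to 32.3 CPM with AAV-A2A given above. Cx3cr1 was at 97.9 CPM in GFP-303, 38.7 CPM in GFP-306 and 134 CPM in GFP-307, and at 55.5 CPM in A2A-309, 24.4 CPM in A2A-310 and 19.3 CPM in A2A-313, a log2 FC of -1.49 ± 0.47 (adjusted p = 0.164 by edgeR). The levels of Cx3cr1 overlapped, since GFP-306 was below A2A-309. DESeq2, which called 7.13% of all genes, called both, with adjusted p of 0.000598 for Sall1 and 0.0203 for Cx3cr1. Sall1 kept a negative value in 13 of 13 settings (-1.39 to -2.25) and was called in 6 of them. It was lost in 5 of the 6 fits that left out 1 library, all but the one without A2A-309 (adjusted p = 0.067 to 0.170 by edgeR).

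Cst3, which astrocytes express, was at 0.36 ± 0.18 (adjusted p = 0.440 by edgeR) in this fraction, with the AAV-A2A libraries above the AAV-GFP libraries without overlap, as for 9.02% of genes with at least 1 CPM. Absence of overlap below the controls, as seen for Sall1, held for 11.5%. The remaining members were between -0.31 ± 0.35 (Olfml3) and 0.24 ± 0.45 (Selplg), with Tmem119 at -0.05 ± 0.28, Gpr34 at -0.19 ± 0.36, Fcrls at 0.16 ± 0.24 and Siglech at 0.20 ± 0.43. Their levels, 5.38 to 54.3 CPM, overlapped between the vectors. The median of the 9 members was -0.05, beside 0.02 over all genes.

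Beside the fall of Sall1, the pan-myeloid sum of the ACSA-2 libraries did not separate the vectors (640, 604 and 936 CPM with AAV-GFP, 1093, 1080 and 558 CPM with AAV-A2A). Sall1 was at 10.95, 8.82 and 7.07% of that sum with AAV-GFP and at 2.95, 0.811 and 3.01% with AAV-A2A, so every control library was above every AAV-A2A library. For this ratio the share of all genes without overlap was not counted. The share of counts on genes with over 5 kb of exon was 26.9 to 28.3% with AAV-GFP and 22.6 to 23.3% with AAV-A2A. With the trend on exon length removed, Sall1 was at -1.63 with an adjusted p of 0.0621 by edgeR. The sum of 10 astrocyte markers was 36578 to 39597 CPM and 40088 to 52804 CPM, with no marker at 0. Which cells the Sall1 RNA came from and why it was lower with AAV-A2A was not tested.

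Of the pathway genes in the ACSA-2 fraction, 2 of 19 regulators and 1 of 14 partners were called lower, and none higher. Itgb8, an integrin subunit that activates latent TGF-beta, was at 218, 184 and 229 CPM with AAV-GFP and 89.9, 50.9 and 68.2 CPM with AAV-A2A, a log2 FC of -1.61 ± 0.22 (adjusted p = 0.00496 by edgeR). Bhlhe41, a transcriptional repressor, fell from 43.0, 35.6 and 55.1 CPM to 22.0, 13.8 and 15.04 CPM (-1.41 ± 0.26, adjusted p = 0.0178 by edgeR). Cx3cl1, the ligand of Cx3cr1, was at 85.1, 135 and 123 CPM and at 50.5, 36.4 and 36.9 CPM (-1.48 ± 0.22, adjusted p = 0.00612 by edgeR). The vectors did not overlap for any of these 3 genes. Itgb8 and Cx3cl1 were called in 12 of 13 settings and Bhlhe41 in 8. None of the 27 other homeostatic genes tested was called, and Csf1r and Ctsd had -0.35 ± 0.32 and 0.06 ± 0.20.

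**Figure D5:**
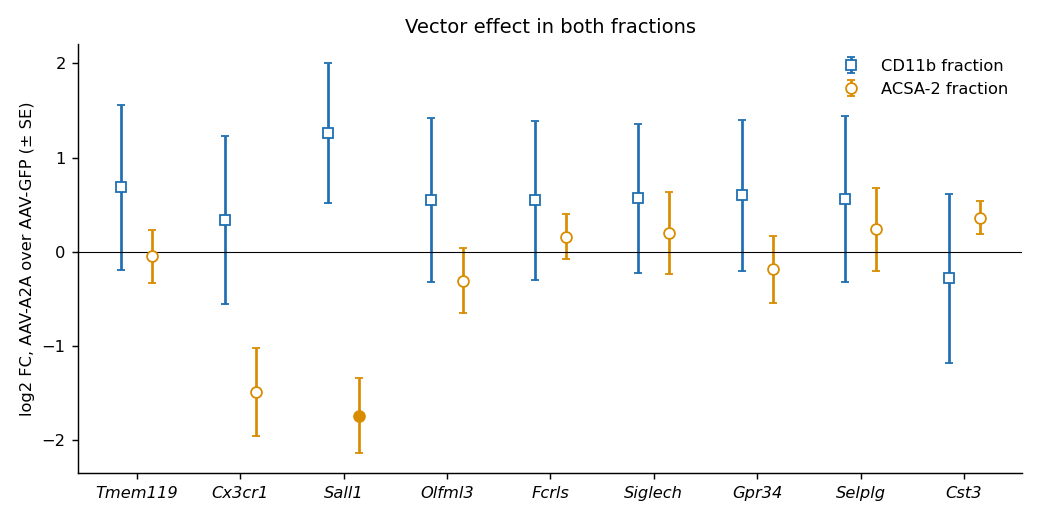
Log2 FC of AAV-A2A over AAV-GFP for the 9 members in the CD11b (blue squares) and ACSA-2 (orange circles) fractions, with bars of ± SE and a filled symbol where the threshold was passed. The single filled symbol is Sall1 in the ACSA-2 fraction (-1.74), and the SE bars of the CD11b fraction (0.74 to 0.89) are wider than those of the ACSA-2 fraction (0.18 to 0.47).

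Whether the vector effect differed between fractions was tested as the interaction term of the 12-library model. None of the 9 members was called, beside 0.403% of 18602 genes. Sall1 had the widest difference, 3.04 ± 0.94 in log2 (adjusted p = 0.122 by edgeR), followed by Cx3cr1 with 1.87 ± 1.09 (adjusted p = 0.371), and the other 7 lay between -0.58 (Cst3) and 0.91 (Olfml3). For Sall1 the term was positive in 17 of 17 settings (2.22 to 4.22). It passed with DESeq2 (adjusted p = 0.0266, beside 5.82% of all genes called higher) and without CD11b GFP-2331 (4.22, adjusted p = 0.0140 by edgeR), and it was at 2.22 (adjusted p = 0.359) without the choroid-rich libraries. With edgeR no further homeostatic gene, regulator or partner was called. DESeq2 called 1 homeostatic gene and 5 regulators higher and 1 partner lower. Without CD11b GFP-2331 edgeR called 8 homeostatic genes, 8 regulators and 1 partner, beside 1286 of 19454 genes tested. Tgfbr1 had 3.60 ± 0.90 (adjusted p = 0.0785 by edgeR).

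The genes whose levels over the 6 CD11b libraries were most like the mean log2 CPM of the 9 members, among 7502 genes with a mean of at least 20 CPM, were Mfng, Pxdc1, Pmp22, Hexa, Fcrl1 and Tmem173, with Pearson's r of 0.997 to 0.999. The points fall into 3 choroid-rich and 3 other libraries, and r is given as a description. Mfng, a glycosyltransferase that modifies Notch receptors, went from 61.9 CPM in GFP-2328 to 205 CPM in A2A-2343. Hexa, the alpha subunit of the lysosomal hexosaminidase, went from 450 CPM in GFP-2328 to 1825 CPM in GFP-2331, and Tmem173, the gene of the DNA-sensing adaptor STING, from 162 CPM in GFP-2328 to 1087 CPM in A2A-2343.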

How the data were processed

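Libraries of 2 magnetically sorted hippocampal fractions were prepared by the authors from full-length amplified cDNA and sequenced as single-end reads, without molecular identifiers. The authors trimmed the reads with cutadapt 1.10, aligned them to GRCm38 with STAR 2.5.3 and counted uniquely mapped, unambiguous reads per Ensembl gene with HTSeq 0.6.1p1. The strand setting is not given in the sources used here. The deposited values are raw counts, 1 table per fraction, and 25 unnamed empty columns were not used. Columns were assigned from the labels.

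From these, CPM were computed on library totals, and differences were tested with edgeR 4.0.16 (TMM, filterByExpr, robust quasi-likelihood fit) in R 4.3.3, within each fraction for the vector and over all 12 libraries for fractions and the interaction. DESeq2 1.42.0 was an alternative. Gene names and lengths are from GENCODE M21 (GRCm38), and promoter windows from RefSeq. Every member is named. Of other lists, up to 4 called genes in each direction by adjusted p are named, or else the 3 most abundant in CD11b libraries, and the 6 genes most like the members by Pearson's r. Some genes that this rule names are not reported here. The members and lists were chosen with earlier results of these data known. Replicates of a group were checked for duplicates and none agreed within sampling noise (chi-square per degree of freedom 55.2 or more). The study gives 3 animals per group for the astrocyte data. For the CD11b libraries the sources used here do not tie libraries to animals, so their p-values measure the spread between libraries. The tests were also tried on simulated counts, with an outcome not reported here. The simulation had no choroid-rich libraries within a group, so it does not cover that feature of the CD11b data. Alternatives with the choroid-rich libraries left out, a choroid marker covariate and the exon length trend removed were chosen after seeing the data.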

Additional observations from a re-analysis of the deposited data

How the results depend on the processing

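No paired analysis was possible because the groups share no replicate numbers. The fraction differences of the members kept their count under each alternative run within 1.5 times (7 to 8 of 9 called in AAV-GFP and 8 in AAV-A2A when each library was left out). In the CD11b fraction no member was called in any setting. DESeq2 called 502 genes there and the fit without choroid-rich libraries 3. In the ACSA-2 fraction DESeq2 called 2 members and 1277 genes, the 12-library fit 0 members and 156 genes, the fit without the length trend 0 members, and fits without 1 library 0 to 1 members and 272 to 448 genes. For the interaction DESeq2 called 1 member and 1740 genes, library totals alone 0 genes, the fit without choroid-rich libraries 0 genes, and fits without 1 library 0 to 1 members and 0 to 1286 genes, the highest without GFP-2331. The ratio to the pan-myeloid sum had 2 members without overlap, 1 with the reduced reference, and 2 to 5 without 1 library, the highest without GFP-2331.

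Some signs turned, and the cause was not tested. In the CD11b vector effect, leaving out the choroid-rich libraries gave log2 FC of -0.070 (Tmem119), -0.43 (Cx3cr1), -0.24 (Olfml3), -0.21 (Fcrls), -0.051 (Siglech) and -0.20 (Selplg). Scaling to the pan-myeloid list gave -0.071 (Cx3cr1), -0.011 (Siglech) and -0.027 (Gpr34), the choroid covariate -0.073 (Cx3cr1) and -0.055 (Gpr34), and removing the length trend 0.39 (Cst3). Without 1 library Cx3cr1 ranged from -0.24 to 1.56 and Cst3 from -0.99 to 0.47. In the ACSA-2 vector effect such fits gave -0.17 to 0.13 for Tmem119, -0.58 to 0.065 for Olfml3, -0.35 to 0.048 for Gpr34 and -0.071 to 0.64 for Selplg. The fraction difference of Cst3 in AAV-GFP was 0.78 without choroid-rich libraries and -0.94 to 0.27 without 1 library. The interaction without choroid-rich libraries was -0.31 for Fcrls, -0.20 for Siglech and -0.38 for Selplg, and without 1 library it was -0.0011 to 1.70 for Fcrls, -0.19 to 1.42 for Siglech, -0.12 to 1.64 for Selplg and -1.34 to 0.23 for Cst3. Relative to the reduced pan-myeloid list the differences were -0.016 (Tmem119), -0.13 (Olfml3), -0.17 (Fcrls) and -0.17 (Selplg). With 3 libraries per group the smallest exact p is 0.1. Read depth alone does not limit the members, which had at least 191 counts in every library, but the number of molecules behind these reads is not known.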
